A study of Mus musculus with 3 samples.

Results

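The type I interferon response genes are a list of 44 genes that cells switch on after interferon-alpha or interferon-beta binds its receptor. The list was drawn up from known interferon-stimulated genes. Of the 44 genes, 42 were found by symbol among the 32285 genes of the deposited tables, and the other two were not analysed here. The tables hold single-cell RNA sequencing of live leukocytes (CD45+) sorted from pancreatic islets of wild-type female NOD mice, the non-obese diabetic strain that develops autoimmune diabetes. There were 3 libraries of this 1 group, each made from the islets of 2 to 3 pooled mice of 15 to 16 weeks, and no treated or mutant mice stood beside them. The libraries held 5844, 9537 and 11566 cell barcodes and 33851381 to 80806452 unique molecular identifiers (UMIs, each counted as 1 RNA molecule).

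Interferon-alpha and interferon-beta act through the receptor chains IFNAR1 and IFNAR2 and the kinases JAK1 and TYK2. The kinases phosphorylate STAT proteins, among them STAT2, which join IRF9 in the ISGF3 complex, and ISGF3 binds a DNA element, the interferon-stimulated response element, in front of antiviral genes. Interferon-gamma uses another receptor and does not need STAT2, and some of its targets are also on this list. An interferon signature is known from islets of people with type 1 diabetes. The question put to these cells was which islet leukocytes carried the response, and whether all cells of a class carried it evenly or a few carried most of it.

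Cells were assigned to 5 classes by the UMIs of marker genes, none of which is on the list. Cells needed at least 1000 UMIs and under 10% mitochondrial UMIs, which 26142 of 26947 met. CD8 T cells held Cd3e and at least 2 UMIs of Cd8a and Cd8b1 without Cd4. CD4 T cells held Cd3e and Cd4 without Cd8a, Cd8b1 or Foxp3, and regulatory T (Treg) cells held Cd3e and Foxp3. B cells held at least 2 UMIs of Cd79a, and macrophages at least 5 of C1qa and C1qb with at most 1 of Cd79a, both without Cd3e. This gave 3199 CD8 T, 5858 CD4 T, 1612 Treg, 4936 B and 68 macrophage cells, and 59 cells that met 2 rules were left out. The macrophages numbered 31, 10 and 27 in replicates 1, 2 and 3, so their values rest on few cells.

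The T-cell, B-cell and macrophage markers were highest in the classes named for them. The sums of these markers include Cd3e, Cd79a, C1qa and C1qb, which set the classes, so that order was partly fixed by the rules. The markers that the rules did not use, among them Cd3d, Cd79b and Csf1r, were each highest in these classes too. The summed level of 7 macrophage markers was 22666, 13967 and 16054 counts per 1000000 UMIs (CPM) in the macrophages of replicates 1, 2 and 3 and 6.3 to 203.6 CPM in the lymphocyte classes. The 4 B-cell markers together were at 2797 to 3231 CPM in B cells, but the T-cell classes held them too. They were at 333, 703 and 422 CPM in Treg cells of replicates 1, 2 and 3. In CD4 T cells they were at 319, 423 and 228 CPM and in CD8 T cells at 219, 258 and 100.3 CPM. The part of B-cell RNA or doublets in these levels was not tested. Markers of natural killer cells and neutrophils reached at most 2.3 CPM in any class and were at 0 in macrophages. A list of 4 plasmacytoid dendritic cell genes was at 388.4 to 609.9 CPM in macrophages and 476.8 to 676.4 CPM in B cells. Siglech, the defining marker of plasmacytoid dendritic cells, a cell type known for making interferon, was at 15.9, 0 and 4.12 CPM in macrophages. The endocrine hormone genes Ins1, Ins2, Gcg and Sst together were at 132, 7.90 and 1327 CPM in macrophages. Between 12 and 29 barcodes were shared by any pair of libraries.

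Replicate 1 stood apart from the other libraries for these genes, and per-library values are given in the order of replicates 1, 2 and 3 throughout. Mki67 and Top2a, which mark dividing cells, together were at 292, 38.00 and 46.7 CPM in CD8 T cells. The median share of mitochondrial UMIs in CD8 T cells was 1.98%, 4.22% and 3.96%. Whether these differences have a part in the levels below was not tested. The study names 2 independent experiments without saying which library came from which, so library and experiment cannot be told apart.

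The DNA in front of the listed genes often held the core of the response element. The motif searched was GAAA, any 2 bases, GAAA on both strands, in windows of 250 bases before to 50 bases after each RefSeq transcript start (assembly GRCm38.p6). Windows were found for 34 of the 42 genes. The motif was present in at least 1 window of 20 of the 34 genes (58.8%), against 3.99% of all 27025 genes in the table. Per window, it was present in 54.8% of 42 member windows and 3.44% of all 32851 windows. The 4 stretches below lie upstream of genes that carry the main results, with the motif in capitals (TTTC, any 2 bases, TTTC is the same motif on the other strand).
Isg15, chr4:156200855-156200916, minus strand: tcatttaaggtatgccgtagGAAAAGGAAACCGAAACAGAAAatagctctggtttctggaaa
Ifit1, chr19:34640765-34640833, plus strand: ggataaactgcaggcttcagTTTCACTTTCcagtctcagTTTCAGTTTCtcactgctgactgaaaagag
Rsad2, chr12:26456543-26456592, minus strand: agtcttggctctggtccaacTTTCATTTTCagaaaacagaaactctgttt
Bst2, chr8:71537567-71537622, minus strand: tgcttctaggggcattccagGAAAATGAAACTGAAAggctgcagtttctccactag

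In Isg15 the motif occurred 3 times with overlaps, and the last copy ended 56 bases before the transcript start. Ifit1 and Bst2 held 2 copies each, which overlapped in Bst2, and Rsad2 held 1. The windows of Oasl1, Oasl2, Ifit2, Irf7, Irf9, Cmpk2, Xaf1, Herc6, Samd9l, Isg20, Ifi209, Ifi35, Ifi44 and Ifi47 had no match to these letters, which says nothing of other forms of the element. A match is a description of the sequence and not evidence of binding.

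Macrophages held the highest levels of the list as a whole. Levels are given as CPM in the sum of all cells of a class in a library. The libraries were made with a 3′ kit that yields 1 tag per transcript, so levels were not divided by gene length. The 42 genes together were at 9985, 13911 and 13215 CPM in macrophages. They were at 1979, 3184 and 3237 CPM in CD8 T cells and 2845, 3379.6 and 3569 CPM in CD4 T cells. In Treg cells they were at 2906, 4447 and 4494 CPM and in B cells at 1418, 2116 and 2107 CPM. The macrophage sums lay above every lymphocyte sum, and the B-cell sum was the lowest in each library. Under the study's own limits on cells, which left 18, 1 and 4 macrophages, the macrophage sums were 14427.5, 6677.8 and 3772.4 CPM, the last below the 4953.7 CPM of Treg cells of replicate 3. They rested on 1150, 8 and 72 UMIs.

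A single gene made up much of the lymphocyte sums. Ifi27l2a, which encodes a small protein of the ISG12 family, had the highest mean level of the 42 genes. It held 26.5% to 66.6% of the member UMIs in the lymphocyte classes and 5.13% to 16.5% in macrophages. Its level was 1894, 1597 and 1667 CPM in CD4 T cells and 1841, 2088 and 2154 CPM in Treg cells. In CD8 T cells it was at 1095, 1129 and 1164 CPM, and in B cells at 637, 700.1 and 558 CPM. Without Ifi27l2a the other 41 genes came to 11190.1 ± 1550.4 CPM (SD, n = 3) in macrophages, 1671 ± 681 in CD8 T cells, 1545 ± 518 in CD4 T cells, 1921 ± 742 in Treg cells and 1249 ± 411 in B cells. Over the 3 libraries the lymphocyte classes then overlapped, replicate 1 being the lowest in each. Within each library Treg cells were the highest of them (1065, 2359 and 2340.0 CPM) and B cells the lowest (781, 1416 and 1549 CPM).

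**Figure D1:**
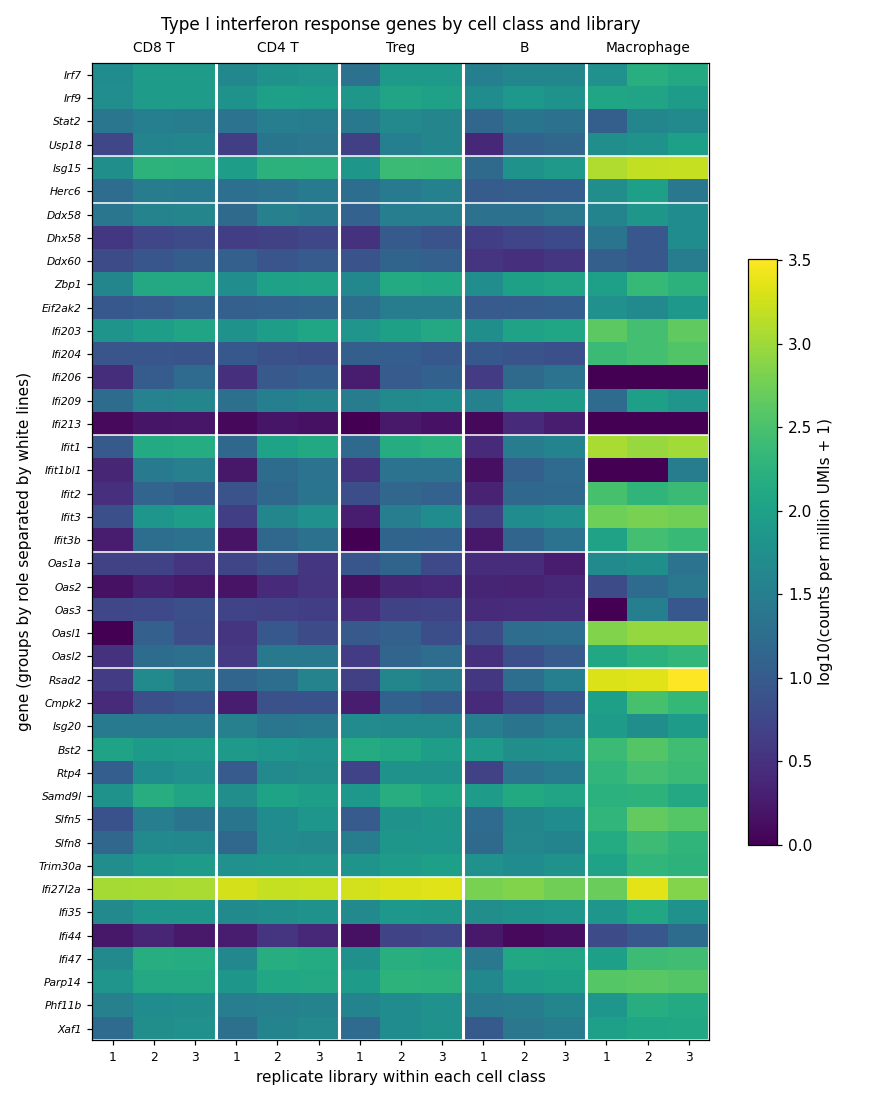
Heat map of the 42 genes (rows, grouped by role) in 5 cell classes of 3 libraries (columns), coloured by log10(CPM + 1). Ifi27l2a is the brightest row in every lymphocyte class, Rsad2, Isg15, Ifit1 and Oasl1 are bright in macrophages, and many rows are darker in replicate 1 than in replicates 2 and 3 of the same lymphocyte class.

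Most genes of the list were higher in macrophages than in lymphocytes. UMIs were summed per class and library, and the 15 sums were fitted for 12099 genes by edgeR's quasi-likelihood method, with library as a blocking term and p-values adjusted by Benjamini-Hochberg over those genes. Of the 42 genes, 41 passed the filter on low counts, and Ifi213, at most 1.64 CPM in any class, did not. In macrophages against the mean of the lymphocyte classes, 31 of 41 were higher and 1 was lower, where 15.0% of all genes tested were higher and 20% lower. The median log2 fold change of the 41 genes was 1.87, against -0.53 over all genes tested. Calls of higher levels covered 9 of 9 antiviral effectors outside the IFIT and OAS families, 4 of 5 IFIT genes, 4 of 5 OAS genes, 5 of 9 sensors tested and 2 of 4 regulators. With cells that held UMIs of another class's markers left out, 32 genes were higher and 1 lower. Under the study's own limits, which among other things leave out cells with 6000 UMIs or more, 17 of 37 genes tested were higher and 1 lower.

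The antiviral effectors included the largest difference. Rsad2, which encodes viperin, an enzyme that makes a chain-terminating nucleotide, was at 2114, 2156 and 3239 CPM in macrophages. In CD8 T cells it was at 3.22, 46.5 and 24.9 CPM, in CD4 T cells at 12.9, 17.7 and 36.1, in Treg cells at 3.64, 40.4 and 28.8 and in B cells at 2.65, 17.3 and 31.95. Macrophages and lymphocytes did not overlap (log2 fold change 7.13, SE 0.37, adjusted p = 5.39e-10). Cmpk2, a nucleotide kinase whose gene is beside Rsad2 on chromosome 12, was at 95.1, 309 and 218 CPM in macrophages and 0.872 to 11.4 CPM in lymphocytes (log2 fold change 5.22, SE 0.28, adjusted p = 7.71e-10). Bst2, or tetherin, which holds budding virus at the cell surface, was at 243, 373 and 272 CPM in macrophages and 53.1 to 146 CPM in lymphocytes (log2 fold change 1.79, SE 0.17, adjusted p = 4.13e-07).

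Much of the Rsad2 lay in few cells. The 3 highest macrophages of each library held 148 of 400, 261 of 272 and 482 of 786 of its macrophage UMIs. Among lymphocytes, 1 cell of replicate 2 that met the CD8 T rule held 361 of the 499 Rsad2 UMIs of that class and library, at 20937 UMIs in all. It held 13 UMIs of Cd3e and 4 of Cd8a, and also 12 of C1qa, 13 of C1qb and 14 of Lyz2, which are macrophage markers. In CD8 T cells without a UMI of Cd79a, C1qa, C1qb or Lyz2, Rsad2 was at 3.25, 12.1 and 25.8 CPM. In B cells without a UMI of C1qa, C1qb or Lyz2 it was at 1.17, 4.81 and 8.82 CPM. Under these stricter rules the mean level in a lymphocyte class was 0.188% to 0.884% of the macrophage level for Rsad2, 0.464% to 1.44% for Oasl1, 1.61% to 11.9% for Ifit1 and 3.27% to 14.7% for Isg15. For macrophage genes that lymphocytes should lack, it was 0.143% to 0.769% for Csf1r and 0% to 0.012% for C1qc. The stricter rules leave out cells with UMIs of C1qa or C1qb. In the classes as first defined C1qc was at 0.042% to 0.299% and Rsad2 at 0.692% to 0.994%. The part of free macrophage RNA in the lymphocyte levels of Rsad2 and Oasl1 was not tested.

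The IFIT proteins bind foreign RNA ends, and the OAS enzymes make the activator of RNase L. Ifit1 was at 1152, 927 and 1067 CPM in macrophages and 1.61 to 174 CPM in lymphocytes, lowest in B cells of replicate 1 and highest in Treg cells of replicate 3 (log2 fold change 4.73, SE 0.49, adjusted p = 1.37e-06). The 3 highest macrophages of each library held 94 of 218, 114 of 117 and 150 of 259 of its Ifit1 UMIs in macrophages. The median macrophage held 3, 0.5 and 0, so the level is not that of a typical macrophage. The lymphocyte classes were at 1.61 to 15.0 CPM in replicate 1 and 29.5 to 174 CPM in replicates 2 and 3. The fold change thus averages a larger difference in replicate 1 and smaller ones in the other libraries. Ifit3, a partner of Ifit1, was at 544, 642 and 577 CPM in macrophages and 0.911 to 92.1 CPM in lymphocytes (log2 fold change 4.33, SE 0.50, adjusted p = 4.18e-06). Ifit1bl1 was the exception of its family, at 0, 0 and 28.8 CPM in macrophages (log2 fold change -0.20, SE 0.58, adjusted p = 0.81). The IFIT genes lie side by side on chromosome 19 and resemble each other, so reads may be divided between them. Oasl1, an OAS-like protein that represses translation of Irf7 mRNA, was at 692, 904 and 907 CPM in macrophages and 0 to 18.1 CPM in lymphocytes (log2 fold change 6.84, SE 0.30, adjusted p = 9.9e-11). For Oasl1 the 3 highest macrophages of each library held 46 of 131, 100 of 114 and 87 of 220 UMIs.

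Isg15, a ubiquitin-like protein that is attached to other proteins and also secreted, was at 1232, 1546 and 1570.0 CPM in macrophages and 15.2 to 245 CPM in lymphocytes (log2 fold change 3.80, SE 0.21, adjusted p = 9.55e-10). Among the sensors of nucleic acid, Ifi204, of the PYHIN family of DNA sensors, was at 243, 285 and 363 CPM in macrophages and 5.99 to 10.5 CPM in lymphocytes (log2 fold change 5.28, SE 0.17, adjusted p = 3.98e-12). Ifi203, of the same family, was at 418, 285 and 453 CPM in macrophages and 54.5 to 129 in lymphocytes (log2 fold change 2.10, SE 0.18, adjusted p = 1.35e-07). PYHIN genes form a cluster of similar copies, and their counts are uncertain for that reason. Ifi206, another of them, was the 1 gene called lower. It had 0 UMIs among the 558022 of macrophages, which allows up to 5.38 CPM by counting error, and 13.1 CPM in pooled B cells. The lymphocyte classes of replicate 1 were below that limit, at 0.911 to 3.03 CPM, and those of replicates 2 and 3 were at 8.52 to 20.7 CPM. By DESeq2, without the library block and without replicate 3, 0 genes of the list were called lower.

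Of the regulators, Usp18 and Irf7 were higher. Usp18, which removes ISG15 and blocks signalling at IFNAR2, was at 52.9, 63.4 and 94.8 CPM in macrophages and 1.51 to 39.6 CPM in lymphocytes (log2 fold change 2.02, SE 0.35, adjusted p = 0.000301). Irf7, the transcription factor that amplifies interferon-alpha production, was at 58.1, 159 and 136 CPM against 20.03 to 85.9 CPM (log2 fold change 1.01, SE 0.31, adjusted p = 0.0203). Irf9 and Stat2, which are parts of ISGF3, did not pass the test, with log2 fold changes of 0.37 (SE 0.21, adjusted p = 0.179) and 0.26 (SE 0.28, adjusted p = 0.577). Parp14, a mono-ADP-ribosyltransferase, was at 381, 404 and 375 CPM against 43.1 to 182 CPM (log2 fold change 1.87, SE 0.17, adjusted p = 2.72e-07). Ifi47, a GTPase that also answers to interferon-gamma, was at 95.1, 254 and 268 CPM against 24.6 to 162 CPM, and replicate 1 of the macrophages fell within the lymphocyte range (log2 fold change 0.90, SE 0.18, adjusted p = 0.000893). Under the study's limits on cells this fold change turned to -0.86. Ifi27l2a was not called, at 513, 2299 and 729 CPM in macrophages (log2 fold change -0.28, SE 0.24, adjusted p = 0.4).

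**Figure D2:**
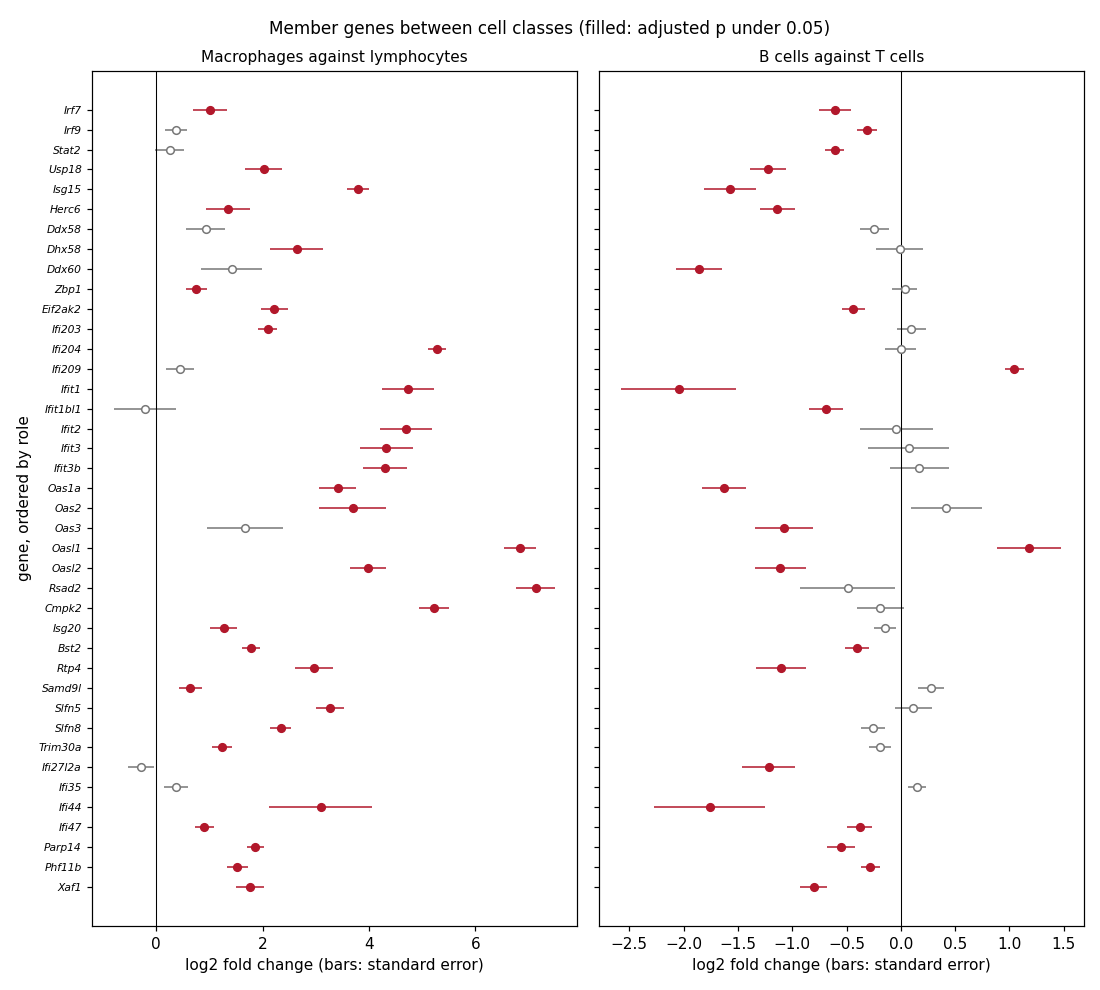
Log2 fold changes of the member genes (points, with standard errors) in macrophages against lymphocytes on the left and in B cells against T cells on the right, with filled points for adjusted p under 0.05. Rsad2 (7.13) and Oasl1 (6.84) lie farthest to the right in macrophages, and Ifit1 (-2.05) farthest to the left in B cells. Ifi206 is not drawn.

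B cells were lower than T cells for many genes of the list. Of the 41 genes tested, 21 were lower and 3 higher in B cells than in the mean of the T-cell classes, where 29.5% of all genes tested were lower and 27.3% higher. The median log2 fold change was -0.31, against -0.02 over all genes. Without the library block 9 were lower and 1 higher, where 2602 and 2249 of all 12099 genes were. The share of members called lower was then near that of all genes. Without replicate 2 the counts were 13 and 3, where 2599 and 2384 of 11995 genes were lower and higher. Without replicate 3 they were 14 and 2, where 2595 and 2283 of 11751 genes were. All 4 regulators and both genes of the ISG15 system were lower, as were 6 of 7 induced genes of other function, but 2 of 9 other antiviral effectors. When libraries were scaled to total UMIs alone, the median of all genes moved to -0.14. Of the list, 25 genes were then lower and 3 higher, where 4350 and 2523 of all 12099 genes were.

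Ifit1 was at 1.61, 29.5 and 36.9 CPM in B cells and 8.73, 140.1 and 146 CPM in CD8 T cells, so B cells were the lower in every library (B against T log2 fold change -2.05, SE 0.53, adjusted p = 0.00397). Isg15 was at 15.2, 59.8 and 78.5 CPM in B cells and 54.4 to 245 in T cells (log2 fold change -1.57, SE 0.24, adjusted p = 4.7e-05). Ddx60, a helicase that assists RNA sensing, was at 2.37, 1.99 and 2.55 CPM in B cells and 5.51 to 12.6 CPM in T cells without overlap (log2 fold change -1.86, SE 0.21, adjusted p = 2.24e-06). Ifi44 was low in all lymphocytes, at 0.758, 0.213 and 0.408 CPM in B cells and 0.455 to 4.68 CPM in T cells (log2 fold change -1.76, SE 0.51, adjusted p = 0.00852). Ifi27l2a was at 637, 700.1 and 558 CPM in B cells, below the 1095 to 2154 CPM of T cells (log2 fold change -1.22, SE 0.24, adjusted p = 0.000529).

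Oasl1, Ifi209 and Ifi206 went the other way. Ifi209, another PYHIN gene, was at 34.3, 76.97 and 81.8 CPM in B cells and 16.3 to 49.5 CPM in T cells (log2 fold change 1.04, SE 0.09, adjusted p = 6.94e-08). Oasl1 was at 5.30, 16.8 and 18.1 CPM in B cells and 0 to 10.8 CPM in T cells (log2 fold change 1.18, SE 0.30, adjusted p = 0.003). Ifi206 was at 3.03, 15.4 and 20.7 CPM against 0.911 to 16.1 CPM (log2 fold change 0.88, SE 0.12, adjusted p = 4.2e-05). Each of the 3 was higher in B cells than in the CD8 T, CD4 T and Treg cells of the same library, with the exception of Oasl1 in Treg cells of replicate 1, at 8.65 CPM. That value was 19 UMIs, 13 of them in 1 cell. Under the stricter rules Oasl1 in that library was at 1.39 CPM in Treg cells and 4.95 CPM in B cells.

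Within T cells few genes passed the test. In Treg cells against CD4 T cells 6 genes were higher and 0 lower by edgeR, where 3.48% of all genes were higher and 2.29% lower, and 15 of the 41 had an unadjusted p under 0.05. DESeq2 called 7 higher and 0 lower. The 6 genes were Eif2ak2, Oas1a, Isg20, Bst2, Slfn8 and Phf11b. Eif2ak2, the kinase PKR that halts translation when it binds double-stranded RNA, was at 17.3, 28.5 and 28.7 CPM in Treg cells and 10.8, 11.6 and 13.1 CPM in CD4 T cells (log2 fold change 1.02, SE 0.13, adjusted p = 0.000156). Isg20, an RNA exonuclease, was at 48.7, 44.8 and 44.9 CPM against 33.1, 22.6 and 25.4 CPM (log2 fold change 0.72, SE 0.12, adjusted p = 0.00208). Oas1a was low in both, at 7.74, 12.4 and 4.92 CPM against 4.36, 6.46 and 2.58 CPM (log2 fold change 0.83, SE 0.20, adjusted p = 0.0223). All 3 were higher in Treg cells of each library. Bst2 is also high in plasmacytoid dendritic cells, and their 4 listed genes together were at 178, 284 and 184 CPM in Treg cells against 104, 136 and 106 CPM in CD4 T cells. Most of the Treg sum was Irf8 (91.5, 181 and 123 CPM) and Tcf4 (43.3, 67.3 and 44.9 CPM). Both were higher in B cells, at 258 to 444 and 216 to 230 CPM. Siglech was at 16.8, 16.9 and 4.68 CPM in Treg cells against 0.174, 3.11 and 2.28 CPM in CD4 T cells. The part of plasmacytoid dendritic cells in the Bst2 call was not tested, nor was that of B-cell RNA in the sum. Without the library block 1 gene was called, without replicate 1 it was 14 (13 of them higher), without replicate 2 it was 0 (7 at an unadjusted p under 0.05) and without replicate 3 it was 1.

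CD8 T cells against CD4 T cells gave 4 genes higher and 1 lower, where 4.55% of all genes were higher and 6.61% lower. Usp18 was at 4.59, 36.8 and 39.5 CPM in CD8 T cells and 3.49, 22.03 and 24.01 CPM in CD4 T cells (log2 fold change 0.81, SE 0.18, adjusted p = 0.00696). Ifit1bl1 was at 1.38, 25.8 and 32.8 CPM against 0.697, 16.6 and 20.8 CPM (log2 fold change 0.76, SE 0.17, adjusted p = 0.0083), and Phf11b at 33.3, 49.8 and 54.7 CPM against 31.2, 33.3 and 36.3 CPM (log2 fold change 0.57, SE 0.11, adjusted p = 0.00244). Bst2 was the other gene called higher. Siglech was at 10.3, 3.26 and 4.87 CPM in CD8 T cells and Ccr9, another gene of the plasmacytoid list, at 7.58, 10.4 and 11.5 CPM, against 1.40, 5.23 and 4.90 CPM in CD4 T cells. Both were above the CD4 T level in each library. The other genes of that list were not. Tcf4 was at 27.8, 20.1 and 18.8 CPM in CD8 T cells against 32.95, 43.1 and 29.0 CPM in CD4 T cells. Irf8 was at 71.4, 76.5 and 52.0 CPM against 69.4, 84.1 and 69.9 CPM. The 4 genes together were at 117, 110 and 87.1 CPM against 104, 136 and 106 CPM. The part of plasmacytoid dendritic cells in the Bst2 call was not tested. Slfn5, a schlafen family gene, was lower, with 6.66, 30.3 and 21.7 CPM in CD8 T cells and 22.5, 50.3 and 68.8 CPM in CD4 T cells (log2 fold change -1.17, SE 0.22, adjusted p = 0.0019). The direction was the same in each library for these genes. With edgeR, 0 genes were called without the block and 0 without replicate 3 (2 and 5 at an unadjusted p under 0.05), 1 without replicate 2 and 16 without replicate 1, and DESeq2 called 3.

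In macrophages the receptor and signalling genes were not mostly higher, unlike the genes of the list. Of 5 such genes outside it (Ifnar1, Ifnar2, Jak1, Tyk2 and Stat3), Ifnar2 alone was higher in macrophages, at 333, 301 and 239 CPM against 43.2 to 105 CPM in lymphocytes (log2 fold change 2.26, SE 0.15, adjusted p = 6.17e-09). Jak1 and Stat3 were lower, with Jak1 at 127, 254 and 235 CPM in macrophages and 297 to 498 CPM in lymphocytes (log2 fold change -1.01, SE 0.13, adjusted p = 2.09e-05). Of 11 sensors and adaptors tested, 7 were higher in macrophages and 0 lower. Ifih1, which encodes the RNA sensor MDA5, was at 883, 571 and 709 CPM against 2.37 to 15.03 CPM (log2 fold change 6.52, SE 0.18, adjusted p = 1.02e-12). Of 13 genes linked to interferon-gamma, 7 were higher and 3 lower. Over all genes tested, 15.0% were higher in macrophages and 20% lower, the shares against which these 3 groups are to be read. In B cells against T cells all 5 receptor and signalling genes were lower (Ifnar1 log2 fold change -0.51, SE 0.11, adjusted p = 0.000734), where 29.5% of all genes tested were. Within T cells the 5 had log2 fold changes of -0.18 to 0.28, with adjusted p from 0.153 upwards in edgeR's test.

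The ligand genes had few UMIs apart from Ifnb1, which encodes interferon-beta. Of 18 type I interferon genes measured, 13 had 0 UMIs among 189433227, which allows up to 0.0158 CPM each as a mean over all barcodes. In macrophages alone, 0 UMIs among 558022 allows up to 5.38 CPM each, so a low level there is not excluded. Ifna2 and Ifna4 had 1 UMI each and Ifnab had 2, and Ifnk had 106 UMIs scattered over 104 cells. Ifnb1 had 202 UMIs in 28 cells, and 150 of the UMIs lay in macrophages, at 486, 214 and 128 CPM. It was seen in 12 of 31, 1 of 10 and 8 of 27 macrophages, or 30.9% of 68 (exact 95% interval 20.2% to 43.3%, counting error only), and the value of replicate 2 is 1 cell with 27 UMIs. Of 4936 B cells, 3 held an Ifnb1 UMI (0.061%), at a median depth of 4309 to 6784 UMIs per cell against 5376 to 12864 in macrophages. The CD8 T cell with 361 Rsad2 UMIs and macrophage markers also held 36 of Ifnb1. No other CD8 T cell held one.

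Macrophages with an Ifnb1 UMI had the higher median of member UMIs. Each cell was thinned to 2000 UMIs for this. The median was 32.5 member UMIs in the 12 macrophages of replicate 1 with Ifnb1 (16 to 86) and 6 in the 19 without (2 to 52). In replicate 3 it was 28.5 in 8 cells (3 to 126) and 8 in 19 cells (1 to 89). The 1 such cell of replicate 2 held 120, against a median of 17 in 8 cells without (3 to 90). The ranges overlapped in replicates 1 and 3. These are values of cells of the same libraries and were not tested.

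In lymphocytes, replicate 1 was below both other libraries for most of the list. Over genes with at least 15 UMIs in a class, this was so for 38 of 41 members in CD8 T cells, 35 of 42 in CD4 T cells, 36 of 41 in Treg cells and 33 of 42 in B cells. Over all genes the shares were 36.4%, 37.3%, 44.7% and 35.7%. The median log2 ratio of the mean of replicates 2 and 3 to replicate 1 was 1.05, 0.89, 1.08 and 1.03 for the members in these classes, and -0.12 to -0.02 for all genes. In macrophages 23 of 35 members were below both, with a median of 0.41, where 36.6% of all genes were. Fold changes of macrophages against lymphocytes therefore average over libraries that differ in this gap. The 3 libraries are of 1 group, so this is a description with no test.

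The gap differed between genes. In CD8 T cells Isg15 was at 54.4, 182 and 175 CPM and Ifit3 at 6.20, 68.4 and 92.1 CPM. Rtp4, a chaperone of membrane receptors, was at 10.1, 50.2 and 59.1 CPM and Ifi47 at 45.9, 154 and 149 CPM. These genes were several times lower in replicate 1. Ifi204 was at 7.35, 7.64 and 7.04 CPM, Isg20 at 26.2, 27.8 and 27.8 CPM and Bst2 at 104, 80.05 and 86.2 CPM, without such a gap, and Bst2 was highest in replicate 1. Outside the list the receptor gene Ifnar1 was at 135, 108 and 114 CPM. Gbp2, a GTPase induced by interferon-gamma, was at 66.6, 290.1 and 272 CPM, so a gene outside the list showed the gap as well. Ifng was at 42.3, 17.7 and 16.3 CPM in CD8 T cells. The part of interferon-gamma in the gap was not tested.

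**Figure D3:**
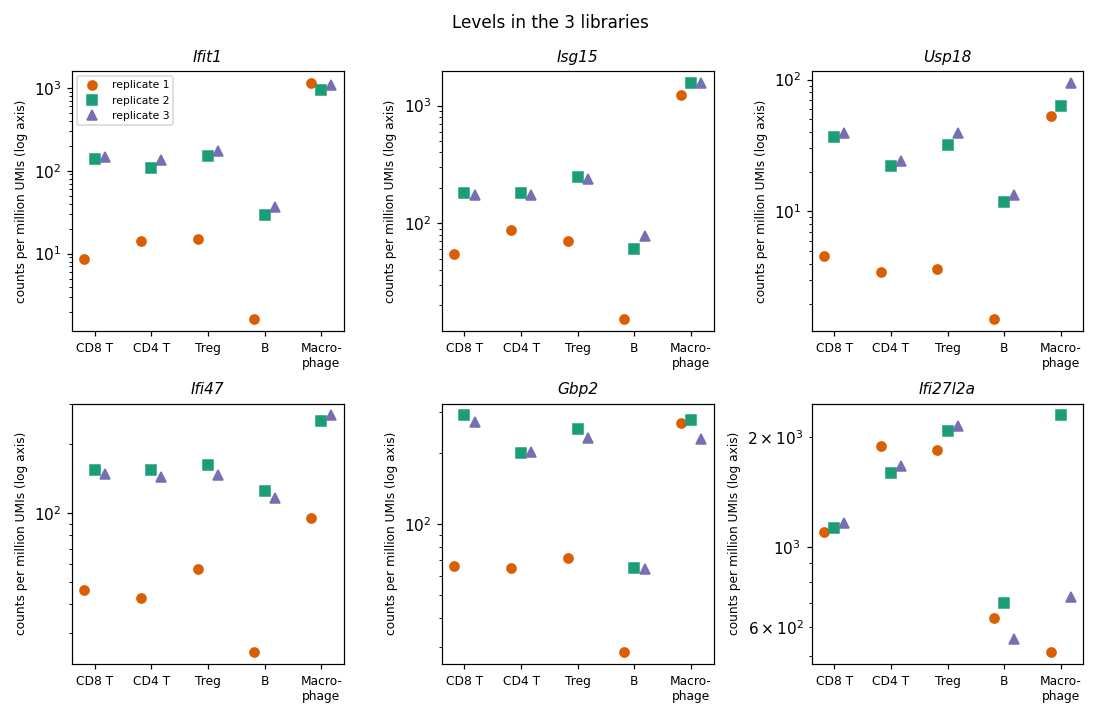
CPM (log axis) of Ifit1, Isg15, Usp18, Ifi47, Gbp2 and Ifi27l2a in the 5 cell classes, with 1 point for each replicate library. In the lymphocyte classes the replicate 1 point lies below the other two for the first 5 genes, for example 8.73 against 140.1 CPM for Ifit1 in CD8 T cells of replicates 1 and 2, while for Ifi27l2a the 3 libraries lie close together.

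The response was uneven between the cells of each class. Each cell was thinned to 2000 UMIs, which left out 0 to 25 shallower cells of a class and library, and its member UMIs were set against a Poisson distribution of the same mean, which an even response would follow. Above the 99th percentile of that distribution lay 9.97% ± 1.3 of CD8 T cells (SD, n = 3), 9.97% ± 0.471 of CD4 T cells, 11.4% ± 1.38 of Treg cells, 8.13% ± 0.645 of B cells and 23.4% ± 2.07 of macrophages. The Poisson distributions put 0.423% to 0.872% of cells there. The variance was 6.43, 7.08, 7.33, 6.27 and 36.7 times the mean in these classes, where an even response gives 1. The top 10% of cells held 34.3% of the member UMIs in CD8 T, 34.4% in CD4 T, 30.9% in Treg, 40.3% in B cells and 38.7% in macrophages. No genes outside the list are set beside these values, which therefore cannot show whether the unevenness is particular to the list.

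The excess was also there without Ifi27l2a. With that gene left out, 6.33% to 7.34% of the cells of a lymphocyte class lay above the limit on average. The median lymphocyte held 1 to 4 UMIs of the other 41 genes, depending on class and library, and the highest held 16 to 83. The 83 was in CD8 T cells of replicate 2. With cells that held a UMI of Cd79a, C1qa, C1qb or Lyz2 left out, the highest there was 45. The share of cells was highest at 0 UMIs in B cells of replicates 1 and 3, and at 1 or 2 UMIs in the other classes and libraries. From there it fell to a thin tail, broken by empty counts in several classes and libraries. In macrophages the median was 16, 12 and 10 UMIs and the highest 84, 119 and 125, and the 3 highest of the 27 macrophages of replicate 3 held 322 of their 675 UMIs.

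**Figure D4:**
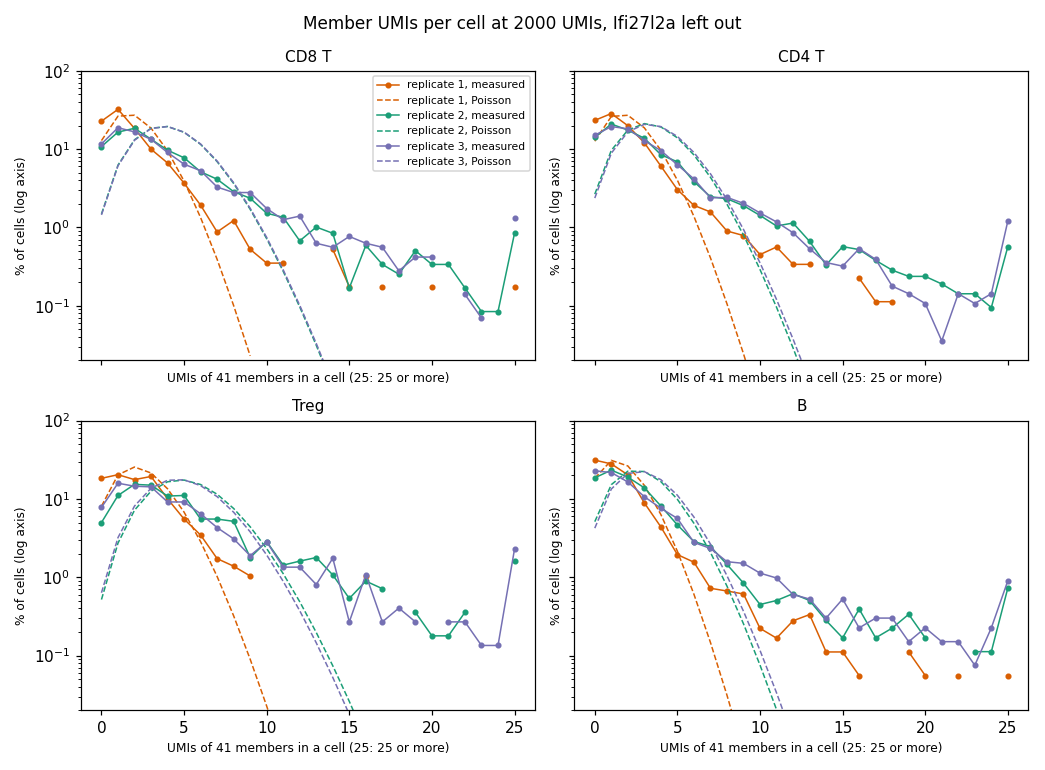
Percent of cells (log axis) by the number of UMIs of 41 member genes at 2000 UMIs per cell, Ifi27l2a left out, for CD8 T, CD4 T, Treg and B cells of each library, with the last point for 25 or more. The measured lines (solid) run above the Poisson lines (dashed) at 0 UMIs and in the right-hand tail.

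Single genes showed the tail to different degrees. The variance of Ifi27l2a was 4.40, 5.47, 5.50 and 3.67 times its mean in CD8 T, CD4 T, Treg and B cells. For Isg15 the ratio was 1.92, 2.13, 1.85 and 1.75, and for Rsad2 in macrophages 18.08. Ifit1 was seen in 16.3% and 15.3% of the thinned CD8 T cells of replicates 2 and 3, where an even level would put it in 26.3% of each. Rsad2 was seen in 61.3%, 44.4% and 40.7% of macrophages, where an even level would put it in 99.4% to 99.8%. Over the 16 to 23 members with at least 20 thinned UMIs in each library, the median ratio was 1.16 to 1.23 in the lymphocyte classes, so most of these genes taken alone were near the ratio of 1 that counting error gives at this depth.

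Cells that were high in some members were high in the others. For this the 42 genes were divided by name, keeping families together, into a first list of 18, among them the IFIT genes, Isg15, Rsad2 and Ifi27l2a, and a second list of 24, among them the OAS genes, the regulators and the PYHIN genes. Cells above the Poisson limit for the first list were compared with the other cells of their class for the second. The second list was 2.88 ± 0.13 times as high in such CD8 T cells (SD, n = 3 libraries, with 315 high and 2882 other cells), 2.87 ± 0.17 times in CD4 T cells, 2.45 ± 0.25 times in Treg cells and 3.82 ± 0.46 times in B cells. In macrophages the ratio was 4.29 ± 1.88 with 15 high cells in all. The ratio was above 1 in 3 of 3 libraries in each class, and the exact two-sided sign-flip test reached p = 0.25 in each, the smallest that 3 libraries allow. In replicate 1 the ratios were 2.73, 2.73, 2.29 and 4.28 in CD8 T, CD4 T, Treg and B cells, beside 2.98, 2.82, 2.33 and 3.36 in replicate 2. With the first list lacking Ifi27l2a, 179 CD8 T, 295 CD4 T, 102 Treg and 168 B cells were high, and the ratios were 3.98 ± 0.86, 3.75 ± 0.43, 2.81 ± 0.59 and 5.12 ± 0.69, above 1 in each library. When cells were thinned to 1000 UMIs instead, that ratio was 0.41 in Treg cells of replicate 1 and above 1 in the other two. Depth differed between high and other cells in both directions. The median in high Treg cells was 5879, 8307 and 7769 UMIs against 4825, 10084 and 9354 in the others. In CD4 T cells it was 5433 against 4581 UMIs in replicate 1, and in CD8 T cells of replicate 2 it was 7505 against 7615.

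Gene by gene, nearly the whole second list was higher in the cells chosen by the first. In CD8 T cells 23 of 23 genes tested were higher, where 2.52% of all genes outside the first list were. In CD4 T cells it was 22 of 22 (3.32% of all genes), in Treg cells 20 of 21 (3.10%) and in B cells 22 of 23 (1.94%). All fold changes in these classes were above 0. DESeq2 gave an adjusted p to 22, 22, 16 and 23 of them and called 21, 21, 14 and 22. The edgeR fit had the library as a block, and without it 1, 5, 1 and 12 genes were called in CD8 T, CD4 T, Treg and B cells, all of them higher. The genes short of the threshold were Ifi204 in Treg cells (log2 fold change 1.01, SE 0.48, adjusted p = 0.305) and Irf9 in B cells (log2 fold change 0.55, SE 0.16, adjusted p = 0.1).

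Markers of cell types moved with this choice of cells in T cells. The 4 T-cell markers were higher in high than in other cells of each library and T-cell class, at 4872, 3176 and 3448 CPM against 3317, 2289 and 2525 CPM in Treg cells. The 4 B-cell markers were lower in high Treg cells, at 77.3, 243 and 145 CPM against 355, 753 and 455 CPM. In CD4 T cells the B-cell markers were at 291, 186 and 82.8 CPM against 324, 448 and 245 CPM. The dividing-cell genes Mki67 and Top2a were lower in high cells of replicate 1, at 35.7, 16.8 and 18.9 CPM against 237, 28.2 and 31.3 CPM in CD4 T cells. The part of these differences in the changes of the second list was not tested.

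Slfn5, Usp18, Oasl1 and Ifi206 rose by over 2 on the log2 scale in each of the 4 classes. Slfn5 rose by 3.03 (SE 0.18), 2.76 (SE 0.11), 2.30 (SE 0.15) and 3.43 (SE 0.12) in CD8 T, CD4 T, Treg and B cells. Usp18 in high CD8 T cells was at 12.2, 141 and 132 CPM, against 4.14, 25.8 and 28.1 CPM in the other CD8 T cells, so the high cells of each library were above the other cells of that library (log2 fold change 2.31, SE 0.14, adjusted p = 8.74e-11). Irf7 in B cells was at 154, 119.7 and 144 CPM in high cells against 23.7, 33.7 and 31.5 CPM without overlap (log2 fold change 2.23, SE 0.16, adjusted p = 1.64e-07). Zbp1, a sensor of Z-form nucleic acid, rose by 1.65 (SE 0.12), 1.65 (SE 0.09), 1.52 (SE 0.15) and 1.52 (SE 0.10) in the 4 classes. Irf9 had the smallest change of the second list in each class, from 0.55 in B cells to 0.85 in CD8 T cells.

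**Figure D5:**
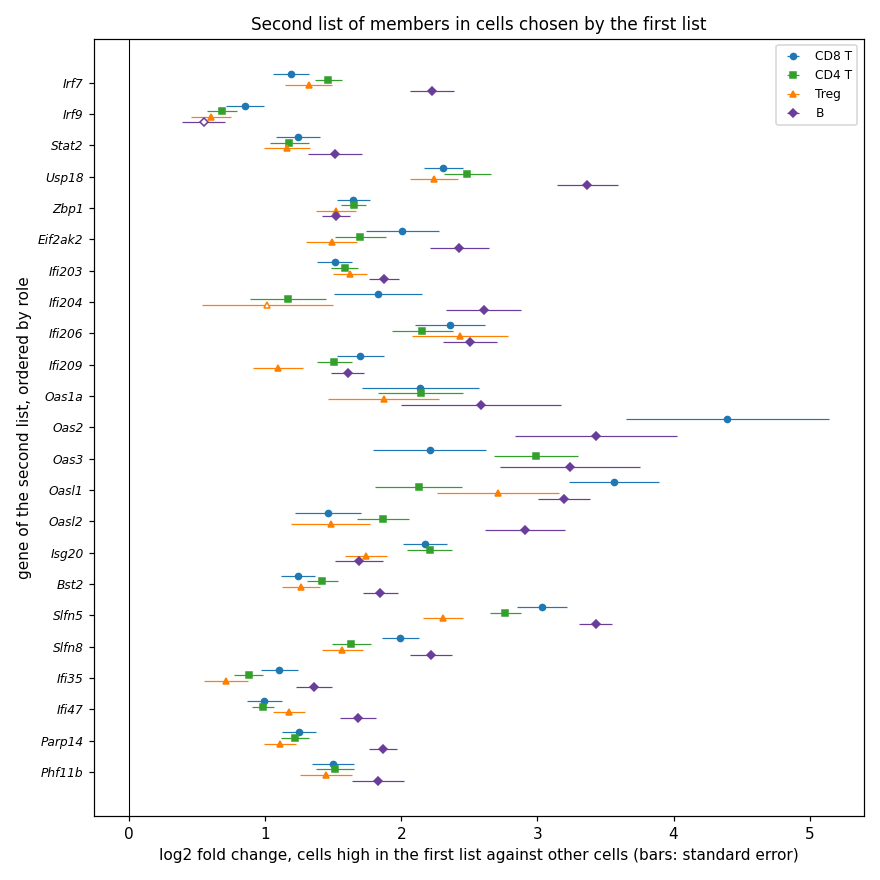
Log2 fold changes (points, with standard errors) of the genes of the second list in cells high in the first list against the other cells of the same class, for CD8 T, CD4 T, Treg and B cells, with filled points for adjusted p under 0.05. All points lie to the right of 0, Irf9 nearest to it (0.55 to 0.85), and the open points are Ifi204 in Treg cells and Irf9 in B cells.

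A minority of the inhibitors, sensors and adaptors outside the list was called in the high cells. Of 7 inhibitors 1 was higher in each of the 4 classes, and of the sensors and adaptors 1 of 9 was higher in CD8 T, 1 of 9 in CD4 T, 2 of 9 in Treg and 3 of 10 in B cells. Socs1, an inhibitor of JAK kinases, rose by 0.74 (SE 0.14), 0.82 (SE 0.14), 0.95 (SE 0.15) and 1.27 (SE 0.14) on the log2 scale in CD8 T, CD4 T, Treg and B cells. Ifih1 rose by 2.49 (SE 0.29), 2.01 (SE 0.20), 1.67 (SE 0.28) and 4.04 (SE 0.46). Neither Ifnar1 nor Ifnar2 passed the test in any of these classes, with log2 fold changes from -0.11 to 0.42. Of the genes linked to interferon-gamma, 8 of 11 tested were higher in high CD8 T cells, 7 of 13 in CD4 T, 10 of 13 in Treg and 7 of 12 in B cells. Over all genes outside the first list, 2.52%, 3.32%, 3.10% and 1.94% were higher in these classes, the shares against which each count above is to be read. The ligand gene Ifng was itself called higher in high CD8 T cells (log2 fold change 0.77, SE 0.21, adjusted p = 0.0398) and lower in high CD4 T cells (log2 fold change -0.92, SE 0.24, adjusted p = 0.0481).

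Genes outside the list were also higher in these cells. Among called genes at 50 CPM or more in high CD8 T cells, the 10 with the largest log2 fold changes were Ifi208 (2.03, SE 0.17), Cxcl10 (2.01, SE 0.15), Daxx, Ifi214, Gbp6, Elovl6, Epsti1, Parp9, Lgals3bp and Ly6a (1.31, SE 0.09). In CD4 T cells they were Cxcl10 (2.54, SE 0.36), Lgals3bp (1.98, SE 0.14), Daxx, Rnf213, Mndal, Gbp6, Epsti1, Dtx3l, Iigp1 and Parp9 (1.30, SE 0.12). In Treg cells they were Gm4841 (2.59, SE 0.21), Cxcl9, Cxcl10 (2.42, SE 0.20), 1600014C10Rik, Epsti1, Slfn1, Lgals3bp, Gbp9, Iigp1 and Gzmb (1.34, SE 0.35). Cxcl10, a chemokine that draws activated T cells, was at 224, 281 and 350.3 CPM in high CD8 T cells against 96.99, 66.9 and 62.6 CPM in the others. Cxcl9 in high Treg cells was at 0, 158 and 16.9 CPM against 5.92, 7.45 and 14.9 CPM, so its change rests on replicate 2. Gzmb, a cytotoxic granule protease, was at 63.3, 47.4 and 153 CPM against 81.4, 39.2 and 28.9 CPM, lower in the high cells of replicate 1. Cxcl9 and Iigp1 belong to the genes linked to interferon-gamma above.

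In B cells the 10 genes were Gm15056 (8.17, SE 0.62), Lyz2 (4.17, SE 0.51), Cxcl9, Cxcl10, Ifitm3 (3.03, SE 0.24), Ifi208, Slfn1, Rnf213, Tor3a and Ifitm2 (1.82, SE 0.34). Gm15056 was at 144, 6.71 and 4.20 CPM in high B cells, against 0.202, 0.077 and 0.11 CPM in the others, so its mean rests on replicate 1. Cxcl10 was lower in the high B cells of replicate 1 than in the others, at 6.55, 322 and 481 CPM against 24.8, 15.5 and 38.4 CPM. Lyz2, the lysozyme of myeloid cells, was at 40.97, 109 and 320.2 CPM in high B cells against 12, 0.538 and 16.9 CPM. The 7 macrophage markers together were at 179, 299 and 373 CPM against 187, 179.8 and 190.3 CPM. With cells that held a UMI of Lyz2, C1qa or C1qb left out, 21 of 23 genes of the second list were higher in high B cells. In high CD4 T cells the macrophage markers were at 728, 2.5 and 154 CPM against 97.6, 17.1 and 35.3 CPM, and 21 of 22 genes were higher under the stricter rule.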

How the data were processed

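Live CD45+ islet leukocytes of wild-type NOD mice were profiled with 10x Chromium 3′ libraries, 3 replicates of 1 group. The authors made the deposited counts (UMIs per gene and cell, not normalized) with Cell Ranger 6.0.1 on mm10. Here cells with at least 1000 UMIs and under 10% mitochondrial UMIs were classed by raw marker UMIs. No doublet caller was run. Cells with UMIs of another class's markers were left out as an alternative. UMIs were summed per class and library and tested with edgeR 4.0.16 (quasi-likelihood test, TMM, filterByExpr, library as block, Benjamini-Hochberg adjusted p) in R 4.3.3, with DESeq2 1.42.0 as an alternative. These steps were tested on simulated data. Cells were thinned to 2000 UMIs (seed 7) in Python 3.11.15 with numpy 2.4.6 and scipy 1.17.1. Gene positions were from GENCODE M21 on GRCm38.

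Classes of a library came from the same pooled mice, which pairs them. Over all 12099 genes tested, not the listed genes alone, deviations of classes from their means correlated at 0.03 to 0.68 within a library (30 pairs). Between libraries they correlated at -0.57 to 0.36 (60 pairs). The deviations of a class cancel over its 3 libraries, so correlations that are positive on average within a library push those between libraries towards negative values. The second range is therefore no separate evidence of pairing. The libraries are separate pools of mice. With library as a block, a shift shared by all classes of a library is taken out of the fit. A shift that only some classes show is not. The p-values of these fits therefore set differences between classes, or between high and other cells, against their variation over the 3 pools. All comparisons between classes came from the same fit and share its estimate of this variation for each gene. That estimate is taken over all classes, and most of the sums in it are of lymphocytes. The p-values of macrophages thus do not measure how far the macrophage difference alone varies over pools with few macrophages. The p-values of all these fits do not measure the spread in level between the pools, which enters the fits without the block.

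The members, the lists and the tests were chosen with earlier results of these data known. Genes given with values were the 10 members with the highest mean CPM over the 15 sums, the 3 called members with the largest change in each direction of each comparison, members needed to describe a role, and, in high cells, the 10 genes outside the list with the largest change among called genes at 50 CPM or more. Other genes outside the list, such as Ifnar1, Ifnar2, Jak1, Ifih1, Socs1, Gbp2 and Ifng, were given with values under no such rule. One signalling gene is not reported here.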

Additional observations from a re-analysis of the deposited data

Results flagged for a closer look

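Cells in no class, which include the 59 cells that met 2 rules, were in none of the main comparisons. They carried the response too, which is why they are listed here. The 42 genes summed to 2069.32 CPM in 2086 such cells of replicate 1, 3043.66 CPM in 3534 cells of replicate 2 and 3061.87 CPM in 4849 cells of replicate 3. Ifi27l2a made up 856.36, 957.14 and 944.81 CPM of this, and Ifit1 was at 19.11, 127.11 and 146.73 CPM, lowest in replicate 1 as in the lymphocyte classes. Their makeup was not tested.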

How the results depend on the processing

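Of the 32 genes called in macrophages, 31 were still called by DESeq2 and 27 to 30 with 1 library left out, all in the same direction. Under the study's limits on cells 18 of 37 tested genes were called, and Zbp1 (-0.68) and Ifi47 (-0.86) reversed without passing the test. Without the replicate block, 10 genes were called in B against T cells, 1 in Treg against CD4 T cells and 0 in CD8 T against CD4 T cells, and 1, 5, 1 and 12 of the second list in high CD8 T, CD4 T, Treg and B cells. For Treg against CD4 T cells, leaving out 1 library gave 0 to 14 calls. For CD8 T against CD4 T cells it gave 0 to 16, DESeq2 gave 3 and no filter on low counts gave 11. Shares above the Poisson limit at 1000 UMIs were 6.87%, 7.51%, 6.81%, 5.97% and 20.5% in CD8 T, CD4 T, Treg and B cells and macrophages. At 2000 UMIs and without Ifi27l2a the shares were 6.85%, 7.03%, 7.34% and 6.33% in the lymphocyte classes. At 2000 UMIs with all 42 genes, the share in macrophages of the strict class was 26.1%. Summed levels without Ifi27l2a were 1670.8, 1545.4, 1921.4 and 1248.8 CPM in CD8 T, CD4 T, Treg and B cells. With all 42 genes, macrophages under the study's limits were at a mean of 8292.6 CPM. The cause of these shifts was not tested, beyond the smaller number of cells or genes that each alternative leaves. The count of cells of 2 rules as Treg, the first list without Ifi27l2a and the fits of high Treg cells were added after seeing the data. Depth limits genes below a few CPM, and 68 macrophages limit every macrophage value.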
